A study of Homo sapiens with 22 samples.

Results

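The genes described here encode antigens of red cell blood group systems, and were chosen by symbol in both raw count tables of the study. They are GYPB, GYPC, RHAG, RHD, RHCE, KEL, XK, ERMAP and BCAM, 9 of the 59087 gene names in each table. RNA-Seq was performed in subclones of HUDEP-2, a human erythroid line that was immortalized and is kept in expansion media (D0) or matured in differentiation media (D6). For H2A.X, a histone variant, the groups at either day were WT with 2 replicates and KO with 3. For BAZ1B, a kinase that acts on H2A.X, both WT and KO had 3 replicates at either day, and the libraries number 22 in all. Deletions were made with paired CRISPR/Cas9 guides, over the coding part of H2A.X or the first exon of BAZ1B. Edited and unedited cells were clonal, so the differences between groups carry those between clones. The KO columns are numbered as the study numbers its KO subclones. The 2 tables were made and normalized separately, and KO was compared with WT only within a table.

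Blood group antigens are inherited differences in proteins or sugars on the red cell surface. RHD and RHCE encode the Rh proteins, which carry the D antigen and the C, c, E and e antigens, and which reach the membrane in a complex with the Rh-associated glycoprotein encoded by RHAG. KEL encodes an endopeptidase that is bound by a disulfide bridge to the XK protein, which carries the Kx antigen. GYPB and GYPC encode glycophorins, heavily sialylated proteins, and that of GYPC anchors the membrane to the skeleton through one of its anchor proteins. ERMAP carries the Scianna antigens, and BCAM, a laminin receptor, the Lutheran antigens.

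RHD and RHCE arose by gene duplication and lie tail to tail on chromosome 1 in hg38, RHD on the plus strand from 25272393 to 25330445 and RHCE on the minus strand from 25362249 to 25430192. Because the results on the RHD share of reads turn on this pair, the 150 bases before a RefSeq start of each gene are shown. They are from GRCh38.p14 at chr1:25272359-25272508 for RHD and chr1:25420826-25420975 on the minus strand for RHCE. That of KEL is at chr7:142962364-142962513 on the minus strand. Of several starts the first listed was taken, but for RHD and RHCE the pair whose windows aligned best. Capitals mark AGATAA, a letter string that fits the binding motif of GATA factors.
RHD: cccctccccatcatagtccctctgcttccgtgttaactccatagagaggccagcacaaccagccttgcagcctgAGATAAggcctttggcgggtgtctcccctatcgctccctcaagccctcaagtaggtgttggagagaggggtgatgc
RHCE: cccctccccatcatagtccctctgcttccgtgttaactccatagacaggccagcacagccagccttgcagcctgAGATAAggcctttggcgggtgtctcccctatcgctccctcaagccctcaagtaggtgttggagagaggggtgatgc
KEL: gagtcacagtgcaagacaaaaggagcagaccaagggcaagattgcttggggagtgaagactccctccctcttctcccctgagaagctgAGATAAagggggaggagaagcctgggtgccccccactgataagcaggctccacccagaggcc
The windows of RHD and RHCE were identical at 148 of 150 positions. As the pair was chosen for its likeness, this identity and the shared motif position are no test of it. They differed by G46C and A58G, with the RHD base first and positions counted from 1 at the 5′ end of the window, which are 105 and 93 bases before the start. Both held AGATAA 76 bases before the start, and KEL held it 62 bases before. Of the 8 member windows found, 3 held AGATAA or its reverse complement TTATCT, as did 5.17% of 35116 windows of this length. The pair of RHD and RHCE is among these 3, so they are not independent matches. CCACACCC or its reverse complement GGGTGTGG was in 0 of 8 and in 2.03%. The RefSeq start used for RHCE lies within the gene span given above, as does that used for RHD. A match is a description of the letters only, and XK had no window in the table used here.

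The other members lie on separate chromosomes or far apart. GYPB is on the minus strand of chromosome 4 from 143996104 to 144019380, GYPC on the plus strand of chromosome 2 from 126656133 to 126696667, and RHAG on the minus strand of chromosome 6 from 49605175 to 49636839. KEL spans 142941114 to 142962363 on the minus strand of chromosome 7, XK 37685791 to 37732130 on the plus strand of chromosome X, ERMAP 42817122 to 42844991 on the plus strand of chromosome 1 and BCAM 44809071 to 44821421 on the plus strand of chromosome 19. GYPB is one of a family of near-identical glycophorin genes, and RHD and RHCE are near-identical to each other, so how reads were split within these families is uncertain. Exons of RHD share 47 bp with those of RSRP1, exons of RHCE 113 bp with those of TMEM50A, and exons of ERMAP 64 bp with those of SVBP, each listed in the tables and on the opposite strand. The labels name an unstranded kit and the study's methods a stranded one, so reads in these overlaps may not be told apart.

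Total counts were 11910141 to 21013004 per library in the H2A.X experiment and 33199408 to 41273244 in the BAZ1B experiment. The gene of H2A.X, listed as H2AFX, had 308 to 1050 normalized counts in its KO libraries and 1575 to 2391 in WT, and BAZ1B had 6556 to 8349 in its KO libraries and 9104 to 9913 in WT, where reads from the undeleted part of either gene are still counted. In the H2A.X table, 5 of the 6 KO columns, all but that of replicate 3 at D6, carry the word Redo in their heading and no WT column does. All 6 erythroid markers (HBB, ALAS2, AHSP, EPOR, TFRC and GATA1) had at least 10 reads in a library of each group. Of the lymphoid, monocyte and macrophage markers, 8 in all, the summed level of either list was at most 6.57 CPM, while 4 epithelial markers summed to 263 to 507 CPM over all libraries. Replicates of a group all differed beyond sampling noise, and none was a copy of another.

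Transcripts of RHAG and then GYPC led the set in every group when normalized counts were divided by exon length in kb, with overlapping ranges of the 2 in WT of the H2A.X experiment at D6. In BAZ1B-experiment WT cells at D0, the level per kb was 7012 ± 208 for RHAG, 2909 ± 20 for GYPC, 1067 ± 19 for ERMAP, 1023 ± 10 for XK, 669 ± 7.8 for KEL, 233 ± 11 for GYPB, 97.8 ± 3.4 for RHCE and 38.1 ± 0.62 for RHD (SD, n = 3), and no 2 neighbours in this order overlapped. At D6 the same cells had 17697 ± 998 for RHAG and 8321 ± 726 for GYPC per kb. There, XK, ERMAP and GYPB, at 2330 ± 156, 2295 ± 120 and 2183 ± 173, could not be ordered because their ranges overlapped. RHCE stood above RHD per kb in the WT cells of both experiments at both days, although their ranges overlapped in the H2A.X experiment at D6. In BAZ1B-experiment WT cells at D6 this order rests on the exon lengths used, 3313 bp for RHD and 2433 bp for RHCE. Before division by length, RHD had 2391 ± 315 normalized counts there and RHCE 2287 ± 289. In BAZ1B KO cells the order per kb was turned, with 107.6 ± 56.1 for RHD and 50.7 ± 27.4 for RHCE at D0, where the ranges overlapped, and 886 ± 169 and 430.0 ± 60.9 at D6, where they did not.

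BCAM was hardly read in these cells. It had 0 reads in every library of both experiments at D0 except 4 reads in WT replicate 1 of the BAZ1B experiment. At D6 it had 6, 9 and 9 reads in WT and 4, 3 and 6 in KO of the BAZ1B experiment, and 2 and 0 reads in WT and 0, 8 and 2 in KO of the H2A.X experiment. It failed the filter on low counts in both experiments, so 8 of the 9 genes were tested.

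**Figure D1:**
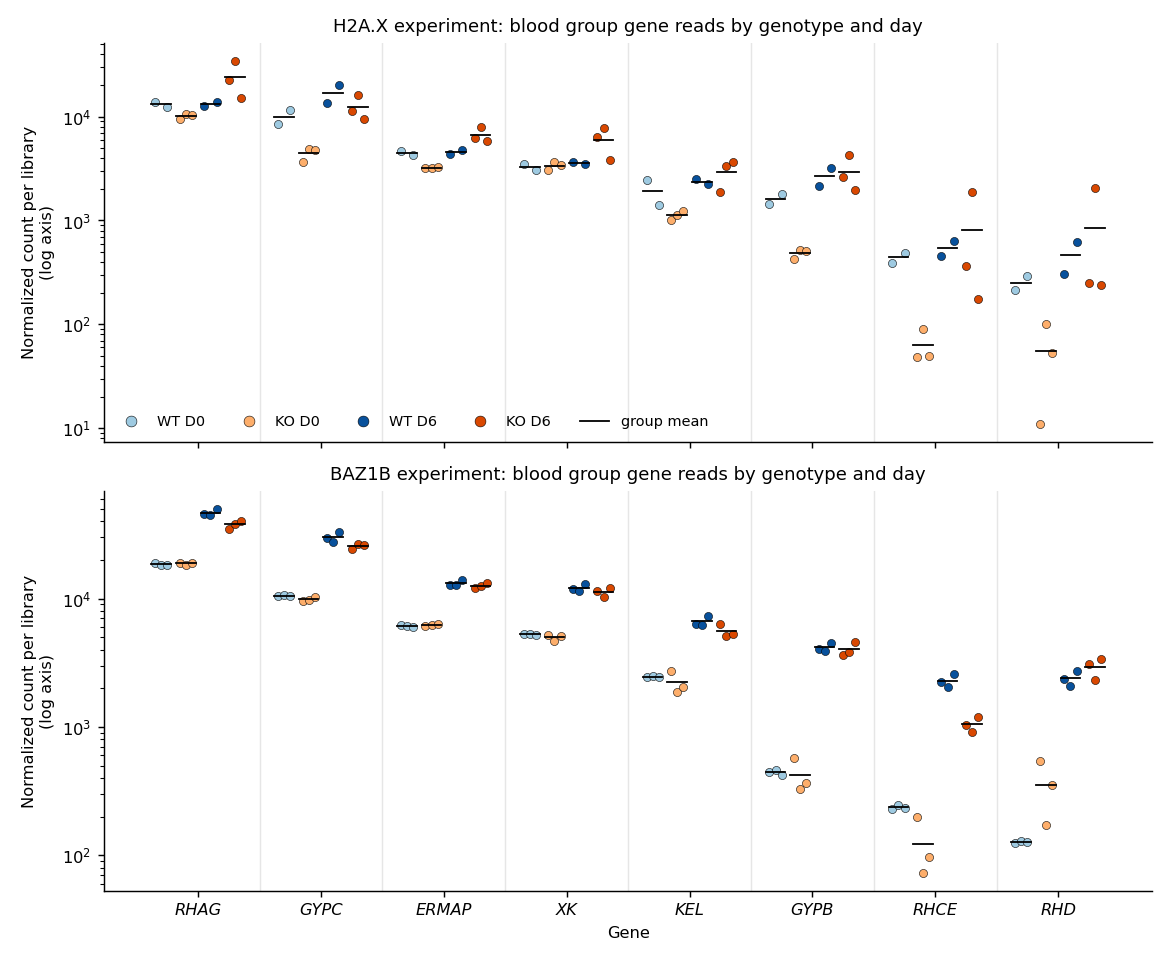
Normalized count of each blood group gene (x axis) in every library, on a log axis, for the H2A.X experiment above and the BAZ1B experiment below; points are libraries and bars group means. BCAM, which failed the filter on low counts, is not drawn. The D6 libraries of the BAZ1B experiment sit above all its D0 libraries for each of the 8 genes, and RHD and RHCE have the widest spread among the KO libraries of the H2A.X experiment.

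All 8 tested genes rose with maturation in the WT cells of the BAZ1B experiment, the change being largest for the Rh genes and GYPB. RHD had 124, 128 and 126 normalized counts at D0 and 2362, 2092 and 2719 at D6, 18.9-fold or 4.24 ± 0.31 on the log2 scale (SE) (adjusted p = 6.5e-08, edgeR). RHCE went from 231, 247 and 235 to 2231, 2030.0 and 2600 (3.26 ± 0.23, adjusted p = 4.3e-08), and GYPB from 445, 466 and 423 to 4080.2, 3884 and 4528 (3.23 ± 0.16, adjusted p = 1.6e-09). In each of the 3 genes the D6 libraries were far above those of D0. The other genes rose 2.15-fold to 2.86-fold, with GYPC at 1.52 ± 0.06, KEL at 1.44 ± 0.12, RHAG at 1.34 ± 0.05, XK at 1.19 ± 0.06 and ERMAP at 1.10 ± 0.04 on the log2 scale. Of all 13879 genes tested, 33.5% rose, and 38.1% had every D6 library above every D0 library, as these 8 did. Over the same days the 6 erythroid markers went from 6210 to 6850 CPM in sum to 29600 to 32400 CPM. The mast cell and eosinophil markers, of which 5 of 7 had at least 10 reads in a library at D0 and CLC was at 0 at both days, went from 211 to 230 CPM to 10.9 to 14.7 CPM. The megakaryocyte markers, 1 of 5 with at least 10 reads and PF4 and PPBP at 0, went from 75.4 to 79.8 CPM to 7.84 to 9.71 CPM. The part of such markers in the rise was not tested. Fewer cells of a type and less RNA per cell cannot be told apart in such bulk samples, and a normalized count is relative to the other RNA of its library.

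In BAZ1B KO cells the same 8 genes rose from D0 to D6, against 33.2% of all genes. RHD went from 544, 172 and 353 to 3104, 2310 and 3392 normalized counts (3.05 ± 0.28, adjusted p = 5.8e-07, edgeR), and RHCE from 199, 73.4 and 97.4 to 1030.4, 906 and 1202 (3.09 ± 0.25, adjusted p = 1.6e-07). GYPB rose by 3.25 ± 0.16, GYPC by 1.37 ± 0.06 and KEL by 1.33 ± 0.12 on the log2 scale. XK, ERMAP and RHAG rose by 1.17 ± 0.06, 1.02 ± 0.04 and 1.01 ± 0.05. No library of D0 reached any of D6 in these 8 genes, nor in 33.3% of all genes tested, counted where D6 was higher. Mast cell and eosinophil markers summed to 218 to 305 CPM at D0 and 3.54 to 12.2 CPM at D6 in these KO cells, megakaryocyte markers to 36.1 to 72.6 and 1.31 to 4.57 CPM, and erythroid markers to 7360 to 7970 and 26000 to 29200 CPM.

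Among H2A.X-experiment WT cells, none of the 8 genes passed the test between the days, where 2.0% of 13236 genes did in either direction. At an unadjusted p below 0.05 edgeR called 1 of the 8, GYPC, and 21.1% of all genes. It had 8435 and 11527 normalized counts at D0 and 13445 and 20051 at D6 (0.75 ± 0.29, adjusted p = 0.19). GYPB had 1441 and 1810.3 at D0 and 2135 and 3192 at D6 (0.71 ± 0.33, adjusted p = 0.25). GYPB stood in these WT cells at 88.1 and 96.5 CPM at D0, where the WT libraries of the BAZ1B experiment had 12.1 to 13.1 CPM, and at 116 and 150 CPM at D6, where those had 99.2 to 113 CPM. The tables are separate and these levels were not tested against each other. The 6 erythroid markers summed to 22500 to 26700 CPM in WT of the H2A.X experiment at D0 and to 6210 to 6850 CPM in WT of the BAZ1B experiment. The common biological coefficient of variation was 0.239 in the H2A.X experiment and 0.0865 in the BAZ1B experiment. With the replicate number within each genotype as a block, GYPC passed the test (0.74, adjusted p = 0.043, edgeR). DESeq2 gave no result for RHD in this experiment and called none of the other genes.

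H2A.X KO cells had all 8 genes higher at D6 than at D0, where 14.8% of all genes rose. The difference between the genotypes was tested as the interaction of genotype and day, which is given after the comparisons at each day. RHD had 11.0, 101.3 and 53.5 normalized counts at D0 and 252, 2045 and 238 at D6 (3.93 ± 0.95, adjusted p = 0.011, edgeR). RHCE had 49.0, 90.1 and 50.2 at D0 and 362, 1869 and 174 at D6 (3.67 ± 0.76, adjusted p = 0.0056). The D6 library of KO replicate 2 was the highest for both genes, and without it the log2 fold changes were 2.15 and 2.09 and still passed (adjusted p = 0.036 and 0.0041). GYPB rose from 426, 519 and 507 to 2596, 4284 and 1949 (2.60 ± 0.29, adjusted p = 0.00024). GYPC, KEL, RHAG, ERMAP and XK rose by 1.47 ± 0.24, 1.39 ± 0.26, 1.23 ± 0.25, 1.03 ± 0.14 and 0.83 ± 0.22 on the log2 scale. XK lost its call without KO replicate 1 at D0 (0.77, adjusted p = 0.066), KO replicate 3 at D0 (0.83, adjusted p = 0.057) or KO replicate 2 at D6 (0.59, adjusted p = 0.063). The mast cell and eosinophil markers given below summed to 115 to 225 CPM in these cells at D0 and to 0.999 to 5.12 CPM at D6, and their part in the rise was not tested.

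**Figure D2:**
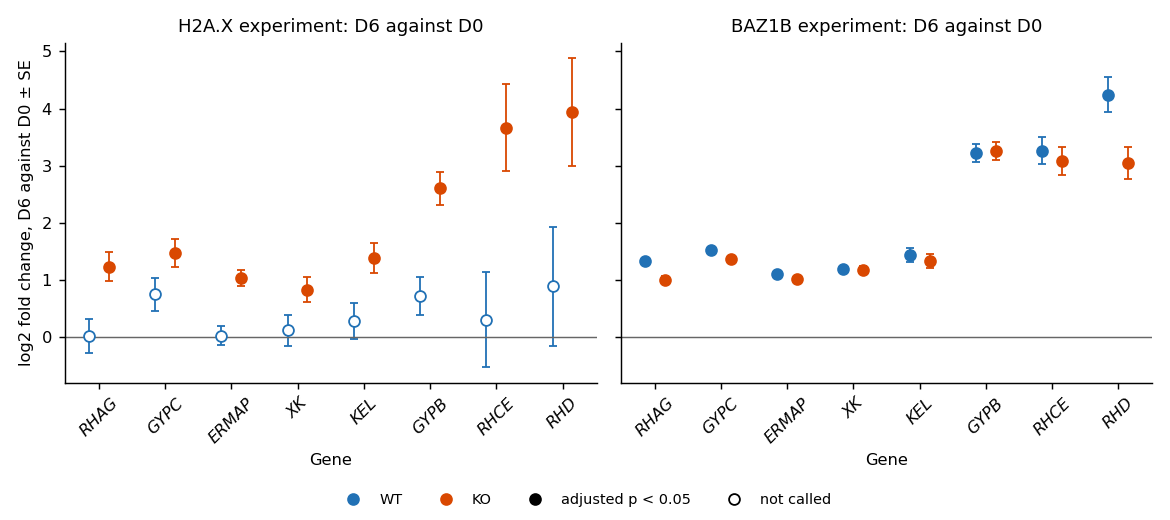
Log2 fold change of D6 against D0 with its SE for each of the 8 tested genes, in WT (blue) and KO (orange) of the H2A.X experiment (left) and the BAZ1B experiment (right); filled points passed an adjusted p of 0.05. In the BAZ1B experiment both genotypes sit well above 0 for each gene, while in the H2A.X experiment the WT points are open and the KO points filled.

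At D0, 4 of the 8 genes were lower in H2A.X KO than in WT cells and none was higher, against 35.1% of all 13236 genes called in either direction and 16.7% called lower. GYPB had 1441 and 1810.3 normalized counts in WT and 426, 519 and 507 in KO, a 3.36-fold lower level (-1.75 ± 0.30 log2, adjusted p = 0.0057, edgeR). RHCE had 391 and 491 in WT and 49.0, 90.1 and 50.2 in KO (-2.80 ± 0.79, adjusted p = 0.022). Every KO library lay below both WT libraries in these genes. GYPC had 8435 and 11527 in WT and 3647, 4895 and 4783 in KO (-1.17 ± 0.26, adjusted p = 0.011), and ERMAP 4653 and 4285 in WT and 3228, 3213 and 3248 in KO (-0.47 ± 0.15, adjusted p = 0.037). RHD was at 212 and 292 in WT and 11.0, 101.3 and 53.5 in KO, which did not pass (-2.19 ± 0.97, adjusted p = 0.10), and KEL at 2462 and 1414 in WT and 1010.4 to 1236 in KO (-0.78 ± 0.29, adjusted p = 0.056). RHAG (-0.36 ± 0.27) and XK (0.03 ± 0.25) did not pass, although the KO range of RHAG, 9571 to 10586, did not reach the WT values of 13939 and 12222. In all, 7 of the 8 genes had groups without overlap at D0, and so did 70.3% of all genes tested.

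These calls at D0 rested on few libraries. GYPB and GYPC passed the test except without WT replicate 2 (-1.57 with an adjusted p of 0.085, and -0.93 with 0.13). RHCE did not pass without WT replicate 2 (-2.63, adjusted p = 0.15), KO replicate 1 (-2.65, adjusted p = 0.069) or KO replicate 3 (-2.66, adjusted p = 0.068). ERMAP missed the threshold when any 1 of the 5 libraries was left out (-0.53 to -0.41, adjusted p from 0.094 to 0.13). RHD and KEL did pass when only the libraries of D0 were fitted (-2.20 with an adjusted p of 0.036, and -0.79 with 0.029), and without the filter on low counts (adjusted p = 2.6e-15 and 0.0014). Without the filter RHD stayed at -2.19, with an SE of 0.26 in place of 0.97. Its smaller p there rests on that SE and not on a larger change. KEL also passed with DESeq2 (-0.77, adjusted p = 0.034) and with upper-quartile normalization (-0.86, adjusted p = 0.0455). Across 11717 genes with a length, longer transcripts had higher log2 fold changes of KO against WT, by a Spearman's rho over genes of 0.50 at D0 and 0.547 at D6, and in the BAZ1B experiment rho was -0.022 and 0.043. After correction of each library for length and GC content, GYPC (-0.66, adjusted p = 0.074) and RHCE (-2.31, adjusted p = 0.060) were no longer called at D0, and GYPB was called at a smaller change (-1.15, adjusted p = 0.020). All 3 KO libraries at D0 have the word Redo in their heading, so it and the genotype cannot be told apart at this day.

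Of 7 mast cell and eosinophil markers, 5 had at least 10 reads in a library of H2A.X KO at D0 and 1 in WT, with sums of 115 to 225 CPM in KO and 36.0 to 38.5 CPM in WT; CLC was at 0 in both, and CPA3 and HDC in WT. The 6 erythroid markers summed to 13100 to 16800 CPM in KO and 22500 to 26700 CPM in WT. Of 5 megakaryocyte markers 1 had at least 10 reads in either genotype, and the sum was 36.8 to 84.3 CPM in KO and 8.16 to 10.4 CPM in WT, with PF4, PPBP and GP1BA at 0 in both. RNAs without a poly(A) tail (2 of 4 with at least 10 reads) summed to 21.3 to 21.9 CPM in KO and 10.8 to 15.3 CPM in WT, with RN7SK and RPPH1 at 0 in both. The part of these RNAs in the lower blood group genes at D0 was not tested.

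By D6, 3 of the 8 genes were higher in H2A.X KO cells and none was lower, against 43.1% of all genes called in either direction and 22.2% called higher. RHAG had 12633 and 13936 normalized counts in WT and 22303, 34361 and 15056 in KO (0.85 ± 0.28 log2, adjusted p = 0.034, edgeR). ERMAP had 4338 and 4737 in WT and 6228, 7857 and 5768 in KO (0.54 ± 0.16, adjusted p = 0.019), and XK 3654 and 3507 in WT and 6313, 7846 and 3837 in KO (0.74 ± 0.25, adjusted p = 0.036). No KO library of these genes reached down to the WT range, and 63.3% of all genes tested had groups without overlap at D6. RHD was at 308 and 626 in WT and at 252, 2045 and 238 in KO (0.86 ± 0.95, adjusted p = 0.48), and RHCE at 458 and 630 in WT and at 362, 1869 and 174 in KO (0.56 ± 0.76, adjusted p = 0.57). Only KO replicate 2 was above WT for RHD and RHCE, and without it the log2 fold changes turned to -0.93 and -1.02. GYPB (0.14 ± 0.30), GYPC (-0.44 ± 0.26) and KEL (0.33 ± 0.29) did not pass either, and their groups overlapped.

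The 3 calls at D6 were lost when only the libraries of D6 were fitted (adjusted p from 0.064 to 0.085). RHAG did not pass without either WT library or without KO replicate 1 or 2 (0.49 to 0.95, adjusted p from 0.053 to 0.14), nor did XK (0.50 to 0.80, adjusted p from 0.077 to 0.17), and ERMAP did not pass without WT replicate 1 (0.50, adjusted p = 0.093) or WT replicate 2 (0.64, adjusted p = 0.083). Where the KO libraries with the word Redo were left out, replicate 3 alone stood against WT and its spread was taken from the other groups. Then RHAG was at 0.19 (adjusted p = 0.72), XK at 0.11 (adjusted p = 0.82) and ERMAP at 0.35 (adjusted p = 0.41), and RHCE was lower in KO (-1.635, adjusted p = 0.035). Correction for length and GC content gave 0.24 for XK (adjusted p = 0.44) and 0.46 for ERMAP (adjusted p = 0.055), raised GYPB to 1.04 (adjusted p = 0.029) and turned GYPC to 0.19 (adjusted p = 0.59). RNAs without a poly(A) tail (2 of 4 with at least 10 reads, RN7SK and RPPH1 at 0) summed to 40.5 and 136 CPM in WT and 6.88 to 14.0 CPM in KO at D6. Mast cell and eosinophil markers (1 of 7 with at least 10 reads, EPX, HDC and CLC at 0) summed to 35.3 to 76.2 CPM in WT and 0.999 to 5.12 CPM in KO, and the erythroid markers to 31100 to 44400 and 37300 to 52000 CPM. The part of these RNAs in the differences at D6 was not tested.

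The signed log2 fold change of KO against WT in the H2A.X experiment was higher at D6 than at D0 for all 8 genes by its estimate, which for GYPB, RHD, RHCE and KEL went from below 0 to a smaller value above it. In the main fit, which took the days as unpaired, none passed the test of that difference, which 1.34% of all genes did. At an unadjusted p below 0.05, edgeR called 5 of the 8 (GYPB, RHAG, RHCE, KEL and ERMAP) and 15.2% of all genes. ERMAP was nearest to the threshold, with a value 1.01 ± 0.22 higher on the log2 scale (adjusted p = 0.055, edgeR), then GYPB with 1.89 ± 0.43 (adjusted p = 0.063). RHCE had 3.36 ± 1.12 (adjusted p = 0.19), RHAG 1.21 ± 0.39 (adjusted p = 0.18), KEL 1.11 ± 0.41 (adjusted p = 0.23) and RHD 3.05 ± 1.38 (adjusted p = 0.33). With the replicate number within each genotype as a block 4 genes passed, GYPB (adjusted p = 0.016), ERMAP (adjusted p = 0.030), RHCE (adjusted p = 0.038) and RHD (adjusted p = 0.040). DESeq2 called GYPB and ERMAP and gave no result for RHD. Without KO replicate 3 at D6, the 1 KO library of that day whose heading lacks Redo, 5 passed: GYPB (2.16), RHAG (1.49), RHCE (3.88), XK (0.99) and ERMAP (1.14). The percentages of all genes above are those of the main fit. Such shares are not given here for the alternatives, so their counts cannot be set against all genes.

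**Figure D3:**
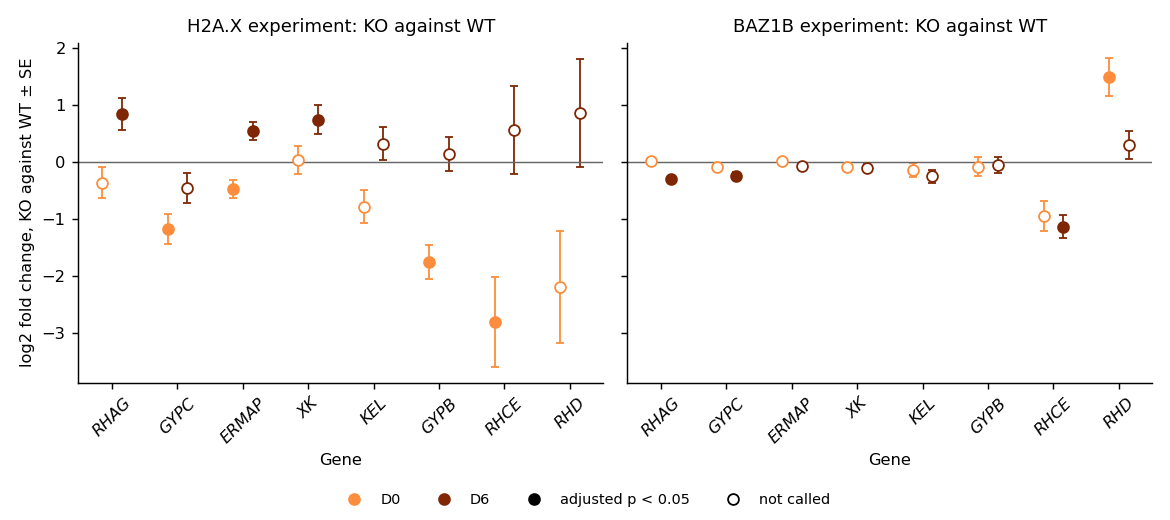
Log2 fold change of KO against WT with its SE for each of the 8 tested genes, at D0 (light) and D6 (dark), in the H2A.X experiment (left) and the BAZ1B experiment (right); filled points passed an adjusted p of 0.05. In the H2A.X experiment 7 of 8 points at D0 lie below 0 and 7 of 8 at D6 above it, and in the BAZ1B experiment RHD at D0 and RHCE at both days are the points furthest from 0.

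BAZ1B KO cells were compared with WT at each day. At D0, 1 of 8 passed the test, against 3.88% of 13879 genes in either direction: RHD was 2.81-fold higher, with 124, 128 and 126 normalized counts in WT and 544, 172 and 353 in KO (1.49 ± 0.33 log2, adjusted p = 0.024, edgeR). All KO libraries were above WT, as in 9.76% of all genes tested, and they differed widely among themselves. RHCE moved the opposite way by its estimate, with 231, 247 and 235 in WT and 199, 73.4 and 97.4 in KO, and did not pass (-0.95 ± 0.26, adjusted p = 0.070). The call of RHD was lost without any 1 of the WT libraries (1.48 to 1.504, adjusted p from 0.094 to 0.0998), without KO replicate 3 (1.495, adjusted p = 0.082) and when only the libraries of D0 were fitted (1.501, adjusted p = 0.083). RHCE passed without KO replicate 1 (-1.49, adjusted p = 0.00026), and so did KEL (-0.32, adjusted p = 0.044). With all libraries KEL was at -0.14 ± 0.12 and did not pass. GYPB, GYPC, RHAG, XK and ERMAP were between -0.08 and 0.03 and did not pass either. Groups did not overlap at D0 in 4 of the 8 genes (GYPC, RHD, RHCE and XK) and in 22.5% of all genes tested. Megakaryocyte markers (1 of 5 with at least 10 reads) summed to 75.4 to 79.8 CPM in WT and 36.1 to 72.6 CPM in KO, with PF4 and PPBP at 0 in both, and the erythroid markers to 6210 to 6850 and 7360 to 7970 CPM, and their part in the level of RHD was not tested.

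At D6, 3 of the 8 genes were lower in BAZ1B KO cells and none was higher, against 12.8% of all genes called in either direction and 5.97% called lower. RHCE had 2231, 2030.0 and 2600 normalized counts in WT and 1030.4, 906 and 1202 in KO, 2.19-fold lower (-1.13 ± 0.20 log2, adjusted p = 0.0031, edgeR). RHAG had 45676, 44428 and 49468 in WT and 34879, 38299.7 and 40087 in KO (-0.30 ± 0.05, adjusted p = 0.0026), and GYPC 29672, 27609 and 32815 in WT and 24296, 26417 and 25909 in KO (-0.23 ± 0.06, adjusted p = 0.015). No KO library of these 3 genes reached the WT range, and 30.8% of all genes tested had groups without overlap. RHD no longer passed at this day, with 2362, 2092 and 2719 in WT and 3104, 2310 and 3392 in KO (0.30 ± 0.24, adjusted p = 0.49), where the groups overlapped. GYPB, KEL, XK and ERMAP were between -0.25 and -0.05 and did not pass. GYPC lost its call without WT replicate 3 (-0.17, adjusted p = 0.059), and RHAG and RHCE passed whichever library was left out. The erythroid markers summed to 29600 to 32400 CPM in WT and 26000 to 29200 CPM in KO at D6, and the megakaryocyte markers to 7.84 to 9.71 and 1.31 to 4.57 CPM with PF4, PPBP and GP1BA at 0 in both. Their part in the 3 lower genes was not tested.

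RHAG was the 1 gene of the 8 whose BAZ1B KO effect differed between the days, against 2.47% of all genes. Its effect fell from 0.03 ± 0.05 at D0 to -0.30 ± 0.05 at D6, a difference of -0.33 ± 0.08 (adjusted p = 0.040, edgeR). At D0 it had 19063, 18098 and 18140 normalized counts in WT and 18933, 18385 and 19055 in KO, so the groups overlapped there and were apart at D6. The call did not hold without 8 of the 12 libraries: any 1 of the 6 WT libraries, KO replicate 3 at D0 or KO replicate 2 at D6 (-0.37 to -0.29, adjusted p from 0.0505 to 0.12). RHD had a difference of -1.20 ± 0.41 (adjusted p = 0.16). That difference passed with the replicate number within each genotype as a block (-1.13, adjusted p = 0.028). It also passed without KO replicate 2 at D0 (-1.53, adjusted p = 0.011).

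Since RHD and RHCE moved apart in BAZ1B KO cells, the reads of the pair were also compared within each library. RHD took 35.0%, 34.2% and 34.9% of the reads of the pair in WT at D0 and 73.2%, 70.1% and 78.4% in KO. At D6 the shares were 51.4%, 50.8% and 51.1% in WT and 75.1%, 71.8% and 73.8% in KO. All 6 KO shares were above all 6 WT shares, and the KO shares at the 2 days overlapped. The log2 ratio of RHD to RHCE reads was 2.43 higher in KO at D0 and 1.42 higher at D6, each with an exact two-sided permutation p of 0.1, the smallest that 3 libraries against 3 allow (0.267 after adjustment over the 8 comparisons of this ratio). In WT it was 0.98 higher at D6 than at D0 (exact permutation p = 0.1), and in KO the difference was -0.03 (exact permutation p = 0.9). The 95% Wilson intervals, which cover counting error only, spanned 29.9% to 39.8% over the WT libraries at D0 and 64.3% to 82.1% over those of KO.

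The summed reads of the pair did not pass the test between BAZ1B KO and WT. They made up 9.87, 10.6 and 10.3 CPM in WT and 21.2, 6.87 and 12.7 CPM in KO at D0, and 115, 105 and 132 CPM in WT and 105, 81.0 and 113 CPM in KO at D6. Fitted as 1 gene, a choice made after seeing the data, the pair was at 0.39 ± 0.29 log2 at D0 (adjusted p = 0.57, edgeR) and at -0.23 ± 0.23 at D6 (adjusted p = 0.58). Shares are of reads as counted by the authors, and how reads that fit both genes were assigned is not given in the sources used here. Their neighbours within the locus were compared as well. RSRP1, which shares exonic bases with RHD, was at 0.24 ± 0.14 at D0 (adjusted p = 0.47) and was lower in KO at D6 (-0.75 ± 0.14, adjusted p = 0.0030), and TMEM50A, which shares them with RHCE, was at 0.01 ± 0.04 and -0.09 ± 0.04 (adjusted p = 0.92 and 0.20).

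In the H2A.X experiment the same share did not separate KO from WT. RHD took 35.2% and 37.3% of the pair's reads in WT and 18.3%, 52.9% and 51.6% in KO at D0, and 40.2% and 49.9% in WT and 41.0%, 52.2% and 57.8% in KO at D6. KO replicate 1 at D0 had the lowest share and rested on 71 reads of the pair, with a 95% Wilson interval of 11.0% to 28.8%. The ratio differed by 0.18 at D0 (exact permutation p = 1.0) and by 0.31 at D6 (exact permutation p = 0.4), where 3 libraries against 2 allow a p of 0.2 at the least. Summed as 1 gene, the pair was lower in H2A.X KO at D0 (-2.55 ± 0.83, adjusted p = 0.038, edgeR) and did not pass at D6 (0.71 ± 0.82, adjusted p = 0.50).

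**Figure D4:**
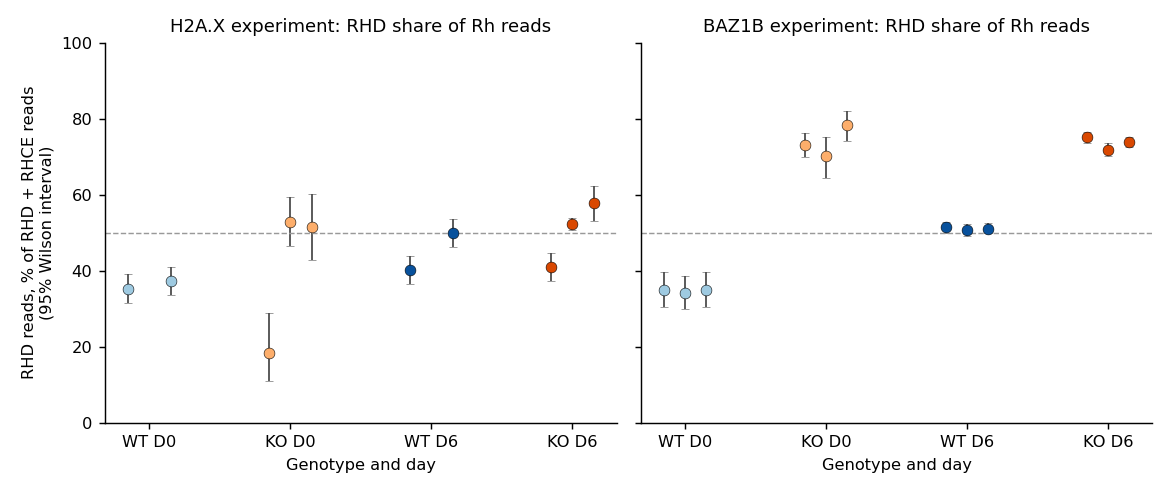
RHD reads as a percentage of RHD and RHCE reads in each library, with 95% Wilson intervals, by genotype and day in the H2A.X experiment (left) and the BAZ1B experiment (right); the dashed line marks equal reads. The KO libraries of the BAZ1B experiment lie between 70.1% and 78.4% and its WT libraries between 34.2% and 51.4%.

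Of 28 other blood group system genes, 26 were tested in each experiment, and with maturation 17 rose and 5 fell in BAZ1B-experiment WT cells, a median log2 fold change of 0.70, where 33.5% of all genes rose and 35.4% fell. Among those whose mean normalized count reached 50, the limit for naming genes of the lists, the largest were SLC4A1, the band 3 anion exchanger that carries the Diego antigens (6.83 ± 0.25), and AQP1, the water channel of the Colton system (6.75 ± 0.33). In BAZ1B KO cells 17 rose and 4 fell, where 33.2% of all genes rose and 34.5% fell, with SLC4A1 at 8.94 ± 0.28 and AQP1 at 7.59 ± 0.36, and the maturation change of SLC4A1 was larger in KO than in WT by 2.11 ± 0.32 (adjusted p = 0.0053, edgeR). SLC4A1 was lower in BAZ1B KO cells at D0 (-2.88 ± 0.25, adjusted p = 2.5e-05) and at D6 (-0.77 ± 0.19, adjusted p = 0.019). At D0 the list had 1 gene higher and 2 lower in BAZ1B KO, where 3.88% of all genes differed, with ACHE, the acetylcholinesterase of the Yt system, at 0.90 ± 0.14. At D6 it had 5 higher and 5 lower, where 6.87% of all genes were higher and 5.97% lower, with A4GALT, the P1PK synthase, at 0.82 ± 0.06.

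In H2A.X KO cells at D0, 13 of the 26 were lower and 4 higher, with a median of -0.69, where 16.7% of all genes were lower and 18.4% higher. AQP1 was the furthest from 0 within the same limit (-4.14 ± 0.38, adjusted p = 0.00062, edgeR), and B3GALNT1, which makes the globoside P antigen, was higher (3.76 ± 0.42). At D6, 5 were higher and 5 lower, where 22.2% of all genes were higher and 20.9% lower, with B3GALNT1 at 6.32 ± 0.57 and SMIM1, which carries the Vel antigen, at -1.33 ± 0.31. From D0 to D6, 13 rose and none fell in H2A.X KO cells by edgeR, where 14.8% of all genes rose, AQP1 by 7.60 ± 0.40 and SLC4A1 by 5.48 ± 0.91, while 3 rose and 2 fell in WT, where 2.0% of all genes changed. The change with maturation differed between KO and WT in 2 of the 26, where it did in 1.34% of all genes. That of AQP1 was larger in KO than in WT by 4.86 ± 0.51 (adjusted p = 0.0037, edgeR). CD44, which carries the Indian antigens, fell in WT (-1.03, adjusted p = 0.018, edgeR) and did not pass in KO (0.09, adjusted p = 0.59). Its signed change was higher in KO than in WT by 1.12 ± 0.19 (adjusted p = 0.022).

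A list of 14 membrane partners of the members, which holds band 3, its anchors, the spectrin skeleton and the surface proteins of CD47 and ICAM4, was tested in full. SLC4A1 and ICAM4 are also among the other blood group system genes, so the 2 lists are not independent. In maturation in the BAZ1B experiment 13 rose and 1 fell in either genotype, with medians of 1.15 in WT and 1.08 in KO. Of all genes, 33.5% rose and 35.4% fell in WT, and 33.2% and 34.5% in KO. The 1 that fell was CD47, at -1.30 in WT and -1.47 in KO (adjusted p = 3.4e-09 and 1.4e-09, edgeR), which is named here after its values were seen. TMOD1, which caps actin filaments, rose by 2.20 ± 0.09 in WT and 2.37 ± 0.09 in KO on the log2 scale. At D6, 7 were lower and 1 higher in BAZ1B KO, where 5.97% of all genes were lower and 6.87% higher, with DMTN, which bundles actin at the spectrin junctions, at -0.36 ± 0.06 (adjusted p = 0.0012, edgeR). At D0, 0 were higher and 1 lower, where 1.25% and 2.64% of all genes were. In H2A.X KO cells 5 were lower and 1 higher at D0, where 16.7% and 18.4% of all genes were, with SLC4A1 at -2.75 ± 0.84 and DMTN at -1.19 ± 0.34, and 7 were higher and 1 lower at D6, where 22.2% and 20.9% were, with EPB41, which encodes a protein that ties spectrin and actin to the membrane, at 1.67 ± 0.36. From D0 to D6, 10 rose and 1 fell in H2A.X KO, where 14.8% and 16.1% of all genes did. None passed in WT by edgeR. The change with maturation differed between KO and WT in 1 of the 14, where it did in 1.34% of all genes. This was TMOD1, higher in KO by 1.47 ± 0.285 (adjusted p = 0.039, edgeR).

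The gene most like each member over the 12 BAZ1B-experiment libraries was named by Pearson's r of log2 CPM among 10922 other genes. This is a description without a test, and the libraries share 2 days and 2 genotypes. ERMAP was most like TAL1 (r = 0.9995) and PRDX2 (r = 0.9987), GYPC like DMTN (r = 0.9988) and TBPL1 (r = 0.9983), and GYPB like RPL10 (r = 0.9991) and GYPE (r = 0.9988), the last being another of its near-identical family. RHAG was nearest to SERINC1 (r = 0.9986) and CCNDBP1 (r = 0.9976). XK went with FAM210B (r = 0.9974) and ASF1A (r = 0.9973), and KEL with WDR59 (r = 0.9963) and TMEM175 (r = 0.9951). The Rh genes shared no gene among these, with C2CD5 (r = 0.9907) and PBXIP1 (r = 0.989) for RHD, and C11orf95 (r = 0.9967) and RGS10 (r = 0.9931) for RHCE. Between RHD and RHCE themselves r was 0.851 over the 12 libraries of the BAZ1B experiment and 0.935 over the 10 of the H2A.X experiment.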

How the data were processed

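HUDEP-2 RNA-Seq libraries were analysed from 2 tables of raw counts per gene, which the authors deposited without normalization, with 22 columns, each matched to a sample by its name. The submitters' processing notes name STAR 2.7.0f, Subread 1.6.4, featureCounts, DESeq2 1.22.1 and hg38. The handling of reads that map to several genes is not given in the sources used here.

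Counts were filtered (filterByExpr, minimum count 10, minimum total 15), normalized by TMM and fitted with edgeR 4.0.16 in R 4.3.3 by the quasi-likelihood F test, two-sided, separately for each experiment, with the 4 groups of genotype and day as coefficients. P values were adjusted by Benjamini-Hochberg over the 13236 (H2A.X) or 13879 (BAZ1B) genes tested, and a gene was called below 0.05. For normalized counts, each library was brought to the average TMM-scaled depth of its experiment. The SE is the log2 fold change divided by the square root of F. Errors of levels are SDs over libraries. The labels do not say that replicates were separate cultures, so p values measure the spread between these libraries. The RHD to RHCE ratio was tested by exact permutation. The procedure was tested on simulated data. Depth was 11910141 to 41273244 counts per library.

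Alternatives were DESeq2 1.42.0, upper-quartile normalization, no globin genes, no filter, the replicate number as a block, correction for length and GC content, the libraries of 1 day, those without the word Redo, stricter cutoffs (adjusted p 0.001, log2 fold change 1.5) and leaving out each library. Summing RHD and RHCE, and cutoffs on an unadjusted p of 0.001 with that fold change, as the study defined its genes, were chosen after seeing the data. The members, gene lists and named genes (all members; of each list, the 2 called genes with the largest change per comparison and a mean normalized count of at least 50; the 2 genes most like each member) were chosen with earlier results of these data known. Some genes that the lists could hold are not reported here.

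Deviations from the group means of libraries with the same replicate number at D0 and D6 correlated at 0.602, 0.428 and 0.299 in H2A.X KO and 0.568, 0.634 and 0.137 in BAZ1B KO. The main fit left this pairing out, and only the fits with the replicate number as a block took it in. The correlations were 0.203, 0.007 and 0.205 in BAZ1B WT. In H2A.X WT the correlation was 0.483, where 2 pairs give 1 value and fewer than the 3 pairs needed to take the numbers as paired. Between the days and for the difference of the KO effect, the block nevertheless held the numbers of WT as well as those of KO. There it had separate terms within each genotype. Between KO and WT at a day, its terms were for numbers shared by both genotypes. Gene positions are from GENCODE on hg38, and promoter windows from RefSeq on GRCh38.p14.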

Additional observations from a re-analysis of the deposited data

Results flagged for a closer look

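RHAG in the BAZ1B experiment had a KO effect that differed between the days by -0.33 on the log2 scale (adjusted p = 0.040, edgeR). Its groups overlapped at D0, and all KO libraries were below WT at D6, where 30.8% of all genes had groups without overlap. It stood out because the difference itself passed its test.

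In the H2A.X experiment every KO library was below every WT library at D0 and above at D6 for RHAG and for ERMAP. Groups without overlap were seen in 70.3% of all genes at D0 and in 63.3% at D6. The share of genes with such a turn is not given here. RHAG was not called at D0 (adjusted p = 0.32, edgeR). The test of the difference itself gave 1.21 for RHAG (adjusted p = 0.18, edgeR) and 1.01 for ERMAP (adjusted p = 0.055, edgeR), so neither passed.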

How the results depend on the processing

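Counts of the 8 tested genes called depended on the processing mainly between KO and WT. In the order KO against WT at D0 and at D6, maturation in WT and in KO, and the difference of the KO effect between days, edgeR called 4, 3, 0, 8 and 0 genes for H2A.X and 1, 3, 8, 8 and 1 for BAZ1B. With each library left out in turn these were 0 to 3, 0 to 3, 0 to 0, 7 to 8 and 0 to 5 for H2A.X, and 0 to 3, 2 to 3, 8 to 8, 8 to 8 and 0 to 2 for BAZ1B. At an adjusted p of 0.001 and a log2 fold change of 1.5, H2A.X had 0 at D0, 0 at D6 and 1 for maturation in KO. With the same fold change and an unadjusted p of 0.001, a setting chosen after seeing the data, it had 1 at D0, 0 at D6 and 2 for maturation in KO. At either of these cutoffs BAZ1B had 0 at D0, 0 at D6, 4 and 3 for maturation in WT and KO and 0 for the difference. Without the filter on low counts they were 5 at D6, 1 for maturation in WT and 6 for the difference in H2A.X, and 2, 5 and 2 at D0, at D6 and for the difference in BAZ1B. In that setting RHD and RHCE passed at D6 of H2A.X with SEs of 0.25 and 0.24 in place of 0.95 and 0.76. Correction for length and GC content gave 2 at D0 and 1 for the difference in H2A.X. Upper-quartile normalization gave 1 and DESeq2 gave 2 for the difference in H2A.X, where DESeq2 had no result for RHD. With only the libraries of the day, H2A.X had 0 at D6 and BAZ1B had 0 at D0, and with only the libraries without the word Redo H2A.X had 1 at D6. The shares of all genes called at these settings are not given here, and the causes of these changes were not tested.

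With the replicate number within each genotype as a block, maturation in H2A.X WT had 1 called gene. The difference in H2A.X had 4 and that in BAZ1B had 2. The KO against WT comparisons share only numbers, whose correlations ran from -0.071 to 0.215. There the block lost the call of ERMAP at D0 of H2A.X (-0.424, adjusted p = 0.055) and gained those of RHD (-2.26, adjusted p = 0.032) and KEL (-0.898, adjusted p = 0.036), and changed no call elsewhere between KO and WT. The block together with length and GC correction gave 2 at D0 (with GYPB at -1.013, adjusted p = 0.022) and 3 for the difference in H2A.X, and 2 at D0 and 2 for the difference in BAZ1B.

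Directions turned for the values below, most but not all of them near 0 or resting on few libraries. GYPC at D6 of H2A.X was at -0.444 in the main fit, and RHCE at D0 of BAZ1B at -0.949. Neither was turned by leaving out a library. In H2A.X KO against WT at D0, RHAG turned to 0.085 with the block and length and GC correction, and XK to -0.045 with upper-quartile normalization, -0.273 with length and GC correction and -0.149 with the block added. At D6, GYPC turned to 0.187 and, with the block added, 0.247, and without Redo GYPB, RHD and RHCE turned to -0.442, -0.955 and -1.635. For maturation in H2A.X WT, RHAG turned to -0.027 without the filter, -0.048 with length and GC correction and -0.028 with the block added, and ERMAP to -0.027 without the filter. For BAZ1B, GYPB turned to 0.001 with length and GC correction and 0.002 with the block added at D6, and to -0.006 with upper-quartile normalization for the difference. Summing RHD and RHCE gave 0.394 for RHCE at D0 and -0.232 for RHD at D6. Removal of globin genes changed no call of a member.

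Leaving out 1 library turned the direction of the following members. For H2A.X at D0, XK ran from -0.063 to 0.138. At D6, GYPB ran from -0.231 to 0.493, RHD from -0.928 to 1.484 and RHCE from -1.021 to 1.071. For maturation in H2A.X WT, RHAG ran from -0.08 to 0.11, KEL from -0.075 to 0.726 and ERMAP from -0.063 to 0.073. For BAZ1B, GYPB ran from -0.36 to 0.074 at D0 and from -0.157 to 0.019 at D6. For the difference in BAZ1B, GYPB ran from -0.124 to 0.31, RHCE from -0.453 to 0.362, KEL from -0.218 to 0.073 and XK from -0.071 to 0.04.

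Depth limits BCAM, with at most 9 reads a library, and the Rh genes in H2A.X KO cells at D0, where RHD had 13 to 118 reads.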
